A study of Mus musculus with 2 samples.

Results

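The retinoic acid pathway was followed through 8 of the 32285 genes in the deposited matrices: *Cyp26b1*, *Dhrs3*, *Rara*, *Rarb*, *Rarg*, *Rxra*, *Aldh1a1* and *Aldh1a2*. They were chosen by name, with earlier results of these data known. Their levels were measured in liver sinusoidal endothelial cells (LSECs), the fenestrated cells that line the sinusoids, and in the few stellate cells caught with them. Maf LSEC-KO mice carried 1 copy of the Clec4g-iCre transgene and 2 floxed *Maf* alleles (Clec4g-iCre tg/wt, Maf fl/fl). Control mice were littermates without the transgene (Clec4g-iCre wt/wt) and with Maf fl/fl or Maf fl/wt, named WT in the sample labels, so that floxed alleles were present in both groups. The *Clec4g* promoter drives Cre in sinusoidal endothelium, and *Maf* encodes the transcription factor c-Maf. LSECs were purified by density gradient and CD146 beads, and cells of 3 mice were pooled into 1 library per condition for droplet 3′ scRNA-seq, where every captured mRNA molecule carries a unique molecular identifier (UMI). The Maf LSEC-KO library is also called the knockout below. The study used adult mice of both sexes, and which ages and sexes went into these pools is not stated in the sources used here. Sex-linked RNA, given below, had the pattern of male cells in both libraries. With 1 library per condition no difference between conditions could be tested. Intervals are exact 95% intervals and cover counting error only.

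Retinoic acid is made from retinol in a pair of oxidation steps. Retinol is first turned into retinal, a step that the retinal reductase encoded by *Dhrs3* runs backwards, and the aldehyde dehydrogenases encoded by *Aldh1a1* and *Aldh1a2* then turn retinal into retinoic acid. Retinoic acid binds the receptors encoded by *Rara*, *Rarb* and *Rarg*, which pair with a retinoid X receptor such as that encoded by *Rxra* and bind direct repeats of a short DNA word. *Cyp26b1* encodes a cytochrome P450 that degrades retinoic acid. *Rarb*, *Dhrs3* and *Cyp26b1* are themselves known as genes that retinoic acid induces. In the liver most retinol is stored as ester in stellate cells, whose esterifying enzyme is encoded by *Lrat*.

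In mm10 coordinates of the GENCODE M21 annotation, *Cyp26b1* lies at chr6:84571414-84593908 on the minus strand, *Dhrs3* at chr4:144892827-144928209 on the plus strand and *Rarb* at chr14:16430839-16819156 on the minus strand. *Rara* lies at chr11:98927818-98974942 (plus strand), *Rarg* at chr15:102234938-102257517 (minus strand) and *Rxra* at chr2:27676440-27762957 (plus strand). *Aldh1a1* lies at chr19:20492715-20643465 and *Aldh1a2* at chr9:71215789-71296243, both on the plus strand. The span of *Rarb* overlaps that of *Top2b* on the opposite strand. Whether their exons overlap was not examined, and how counting treated strand is not given in the sources used here. *Top2b* was within 2-fold between the libraries (229 and 204 CPM, as defined below).

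All 8 genes matched the promoter windows of RefSeq (GRCm38.p6, the assembly of mm10), with 16 windows between them. Direct repeats were searched on both strands as pairs of half-sites, in any combination, spaced by 1, 2 or 5 bases (DR1, DR2 and DR5). The half-site was AGGTCA or one of its variants, of which the first was AGTTCA, the second was GGGTCA and the last was GGTTCA. The motifs could overlap one another. Only the window of *Rarb* held one, a DR5 repeat at chr14:16575513-16575529 on the strand of the gene, from 53 to 37 bases before the transcription start. Of all 32851 windows of the same length, 0.0974% held a DR5 repeat, 0.268% a DR2 repeat and 0.222% a DR1 repeat. TGCTGAC, the core of the element that Maf proteins bind, was in 4.67% of all windows and in none of the 16. A match is a description of the letters, and no match says only that these letters are not in the window. The 250 bases before the start of the 3 genes that were more than 2-fold lower in Maf LSEC-KO LSECs (below) are shown 5′ to 3′ on the strand of the gene, with the DR5 repeat in capitals. The windows are chr14:16575477-16575726 for *Rarb*, chr6:84593811-84594060 for *Cyp26b1* and chr4:144892577-144892826 for the first of the 3 starts of *Dhrs3*.
Rarb: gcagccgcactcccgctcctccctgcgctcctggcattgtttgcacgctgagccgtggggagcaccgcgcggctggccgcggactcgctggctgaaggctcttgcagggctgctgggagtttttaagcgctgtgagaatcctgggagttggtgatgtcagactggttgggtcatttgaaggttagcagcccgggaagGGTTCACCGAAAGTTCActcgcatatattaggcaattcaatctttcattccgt
Cyp26b1: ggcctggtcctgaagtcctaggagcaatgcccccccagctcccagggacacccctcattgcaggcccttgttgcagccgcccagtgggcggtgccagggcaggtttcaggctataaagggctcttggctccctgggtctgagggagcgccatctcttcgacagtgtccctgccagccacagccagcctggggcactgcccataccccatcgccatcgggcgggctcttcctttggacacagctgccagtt
Dhrs3: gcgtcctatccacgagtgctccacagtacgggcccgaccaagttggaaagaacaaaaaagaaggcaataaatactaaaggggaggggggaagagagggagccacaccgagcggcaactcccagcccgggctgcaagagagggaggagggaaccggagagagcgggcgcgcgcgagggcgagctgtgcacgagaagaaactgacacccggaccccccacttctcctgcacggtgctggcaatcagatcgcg
The windows of *Cyp26b1* and *Dhrs3* held none of the searched repeats, and their GC content was 64.8% and 61.6%, against 58% in that of *Rarb*.

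The control library held 4961 cells past the filter and the Maf LSEC-KO library 5423, of which 4091 and 3233 were taken as LSECs. LSECs had a median of 8395 UMIs in control and 13870 in Maf LSEC-KO, and shares of cells are therefore also given after every cell was thinned to 2700 UMIs, which left out 406 and 186 LSECs. Levels are UMIs per 1000000 UMIs outside mitochondrial and ribosomal protein genes (CPM). All 14 endothelial marker genes were above 10 CPM in LSECs of both libraries. *Maf* was 28-fold lower in Maf LSEC-KO LSECs (3472 and 124 CPM), and 21.0% of the latter had a *Maf* UMI, or 9.58% after thinning. Unthinned, 5.81% of the neutrophil or monocyte-like cells of the knockout had one, and 14.1% of these and the T or NK cell-like cells together. *Fos*, an immediate early gene, was at 96.1 CPM in control LSECs and at 266 CPM in those of the knockout, and the summed level of 3 cycling genes was 99.98 and 620.3 CPM. Those of 12 stellate genes were 118 and 70.7, and those of 7 hepatocyte genes 139 and 72.1. The summed levels were 929 and 11.4 CPM for 3 erythroid genes, 6.96 and 61.6 CPM for 4 lymphatic endothelial genes, 15.2 and 64.3 CPM for 6 mesothelial genes, and 27942 and 13436 CPM for the 14 endothelial genes. The part of these differences in the results below was not tested. *Xist*, a gene expressed in female cells, had 3 and 12 UMIs in LSECs of the libraries. The Y-linked *Ddx3y* had 4139 and 2798 UMIs, in 48.7% and 40.9% of LSECs, which is the pattern of male cells in both. A total of 10 cell barcodes were present in both libraries, 5 of them as LSECs.

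To see which members differed between the conditions, UMIs were summed over the LSECs of each library. *Rarb*, *Dhrs3* and *Cyp26b1* were lower in Maf LSEC-KO LSECs, by 8.71-fold, 3.9-fold and 3.8-fold. *Rxra* and *Rarg* were lower by less than 2-fold, *Rara* was close to equal, and *Aldh1a1* and *Aldh1a2* were below 10 CPM in both libraries. Of the 6 members with at least 10 CPM in either library, 3 were at least 2-fold lower and 0 were at least 2-fold higher. Among all 9297 genes of that level, 4.57% were at least 2-fold lower and 10.4% at least 2-fold higher. The median log2 ratio of the 6 members was -1.37, and that of all genes was 0.14. Since the members were chosen with earlier results of these data known, these shares and medians are a description and no test.

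**Figure D1:**
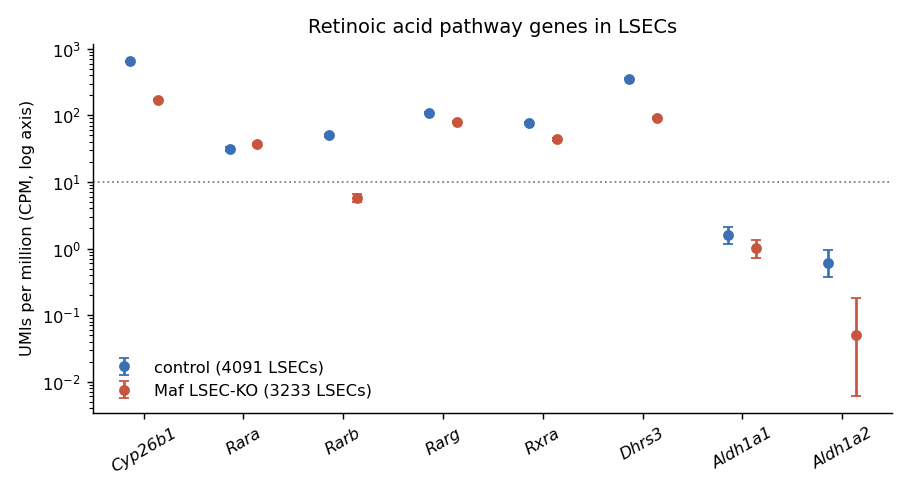
Levels of the 8 genes in LSECs of the control library (blue) and the Maf LSEC-KO library (red), in CPM on a log axis, with exact 95% Poisson intervals for counting error and a dotted line at 10 CPM. *Rarb* went from 50.4 to 5.79 CPM, while *Rara* stayed between 31.5 and 36.5 CPM.

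*Cyp26b1*, the enzyme of retinoic acid clearance, had 21369 UMIs in control LSECs against 6849 in those of the knockout. This is 653 CPM (interval 644 to 661) and 172 CPM (168 to 176), a log2 ratio of -1.93 (-1.97 to -1.89). After thinning, 36.8% of control and 20.3% of Maf LSEC-KO LSECs had a *Cyp26b1* UMI, against 7.25% and 4.70% unthinned in neutrophil or monocyte-like and T or NK cell-like cells, which should lack it. Those 69 control and 149 Maf LSEC-KO cells had medians of 4281 and 4746 UMIs. B cell-like cells were left out of this background. Of them, 29.8% in control and 5.13% in Maf LSEC-KO had a *Cyp26b1* UMI unthinned, with *Clec4g* at 2055 and 351 CPM.

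*Dhrs3*, the retinal reductase, had 11646 UMIs in control LSECs (356 CPM, interval 349 to 362) and 3641 in the knockout (91.2 CPM, interval 88.3 to 94.2). Its log2 ratio was -1.96 (-2.02 to -1.91). Thinned, 52.9% and 16.8% of LSECs had a UMI of it, against 13.0% and 6.71% of the unthinned immune cells.

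Among the receptors, *Rarb* had 1651 UMIs in control LSECs (50.4 CPM, interval 48.0 to 52.9) and 231 in the knockout (5.79 CPM, interval 5.07 to 6.58), with a log2 ratio of -3.12 (-3.33 to -2.92). Thinned, 9.58% and 1.51% of LSECs had a *Rarb* UMI, against 2.90% of the unthinned immune cells of the control and 0 of 149 of the knockout, which allows a share of up to 2.01%. *Rarg* was at 107 CPM (104 to 111) and 79.4 CPM (76.7 to 82.2), with a log2 ratio of -0.43 (-0.50 to -0.37). *Rara* had 31.5 CPM (29.6 to 33.5) in control against 36.5 CPM (34.7 to 38.5) in the knockout, and its log2 ratio of 0.21 (0.10 to 0.33) lay beside the 0.14 of the median gene. *Rxra*, the common partner, was at 76.5 CPM (73.5 to 79.5) and 43.8 CPM (41.7 to 45.9), with a log2 ratio of -0.80 (-0.89 to -0.72). The receptors thus differed by unequal amounts, and *Rarb* stood apart from *Rara* and *Rarg*, with intervals that did not overlap.

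Of the enzymes of synthesis, *Aldh1a1* had 52 UMIs in 48 of the control LSECs (1.59 CPM) and 40 UMIs in 32 of those of the knockout (1.002 CPM). *Aldh1a2* had 20 UMIs in control LSECs, 19 of them in a single cell, and 2 UMIs in 1 Maf LSEC-KO LSEC. That control cell was in a group of 4 cells with *Dcn*, a gene of mesenchymal cells, at 5010.4 CPM. No ratio was read from these counts.

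In a list of 47 other retinoid genes, 18 had at least 10 CPM in LSECs of either library. Of these, 3 were at least 2-fold higher in Maf LSEC-KO (10.4% of all genes) and 0 at least 2-fold lower (4.57% of all genes). Their median log2 ratio was 0.15, near that of all genes. *Fabp5*, a fatty acid-binding protein that also binds retinoic acid, was at 657 CPM in control LSECs and 1397 CPM in the knockout (log2 ratio 1.09, 1.07 to 1.11). *Hic1*, listed among textbook targets of retinoic acid, was at 36.9 and 82.6 CPM (1.16, 1.07 to 1.26). All 5 coregulators tested and all 5 retinol and retinal oxidoreductases tested were within 2-fold, as were most genes of that level. The other members of the *Cyp26* family, *Cyp26a1* and *Cyp26c1*, were below 1 CPM in both libraries, and so was *Aldh1a3* in control (0.397 CPM, against 1.20 CPM in Maf LSEC-KO).

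*Cyp26b1* was unevenly spread over LSECs. In control the median LSEC had 0 UMIs of it and the highest 101, and the 409 cells richest in it held 63.2% of its UMIs. For *Dhrs3* the median was 2 UMIs, the highest 24, and the 409 richest cells held 32.6%. After thinning, 12.5% of control LSECs (462 cells) and 1.31% of Maf LSEC-KO LSECs (40 cells) had at least 5 *Cyp26b1* UMIs, and 63.2% and 79.7% had 0.

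**Figure D2:**
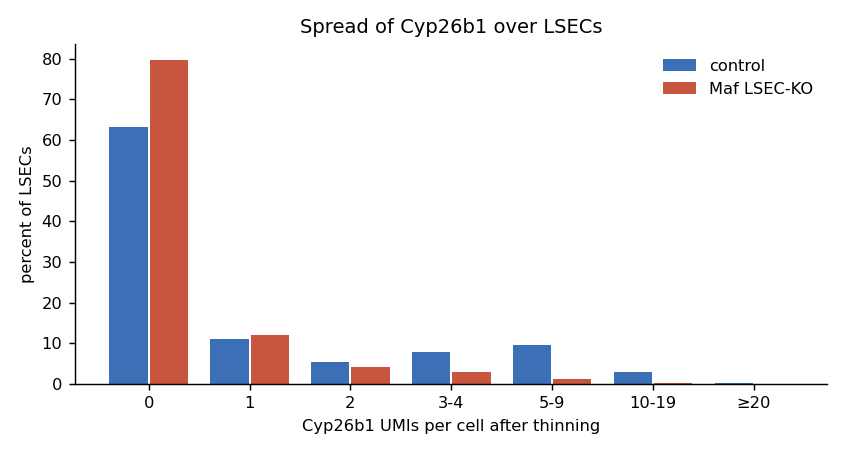
Percent of LSECs by the number of *Cyp26b1* UMIs per cell after thinning to 2700 UMIs, in control (blue) and Maf LSEC-KO (red). Bars start at 0. Cells with 5 or more UMIs made up 12.5% of control and 1.31% of Maf LSEC-KO LSECs.

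Other members were higher in the LSECs that were rich in *Cyp26b1*. In control LSECs with 0, 1 to 4 and 5 or more thinned *Cyp26b1* UMIs, *Dhrs3* was at 303, 394 and 554 CPM. *Rarb* was at 41.1, 61.5 and 73.6 CPM, and *Rarg* at 93.1, 121 and 149 CPM. *Rara* (33.3, 30.2 and 25.7 CPM) and *Rxra* (77.0, 81.5 and 70.0 CPM) did not follow this order. *Maf* itself was at 3868, 2991 and 2547 CPM, the lowest in the control cells richest in *Cyp26b1*, while in the knockout it was at 119, 134 and 205 CPM, the opposite order. In the Maf LSEC-KO library the same 3 classes had *Dhrs3* at 80.4, 129 and 230 CPM and *Rarb* at 5.03, 8.32 and 17.7 CPM, the last from 8 UMIs. The zonal marker *Wnt2*, used below, also differed between the classes, with 269, 274 and 388 CPM in control and 26.3, 67.1 and 132 CPM in the knockout, and its part in these values was not tested. Median UMIs per cell were 8915, 9213 and 9294 in the control classes, and 14361, 15437 and 13576 in those of the knockout.

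The LSECs of both libraries were then clustered together, and 8 clusters were numbered by size. Clusters were built with the members among the genes used, so their levels are a description. *Cyp26b1* led cluster 4, which held 929 control and 53 Maf LSEC-KO LSECs. In control it was at 1930.1 CPM (1901 to 1959) in cluster 4 and at 107 CPM (102 to 112) in cluster 1 (1617 control cells), the highest and lowest levels among clusters with at least 50 control cells. Cluster 4 made up 22.7% of control LSECs and held 80.8% of their *Cyp26b1* UMIs. With cluster 4 left out of both libraries the log2 ratio of *Cyp26b1* between conditions was -0.01 and that of *Dhrs3* -1.76. *Cyp26b1* itself helped to define cluster 4 and nearly all cells left out were control cells, so the value for *Cyp26b1* follows in part from the choice of cells and is no test. The 53 cluster 4 cells of the knockout had *Cyp26b1* at 258 CPM. Their *Maf* was at 2301 CPM, and *Rarb* was at 24.6 CPM against 66.6 CPM in control cells of the cluster (log2 ratio -1.44, -2.40 to -0.62) and *Dhrs3* at 279 against 500.2 CPM (-0.84, -1.10 to -0.60).

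Most Maf LSEC-KO LSECs lay in clusters 2 and 3, which had 10 and 1 control cells. *Cyp26b1* was at 300.2 CPM (292 to 309) in cluster 2 and at 49.6 CPM (45.6 to 53.8) in cluster 3. *Dhrs3* was at 112 and 47.8 CPM and *Rarb* at 5.38 and 2.46 CPM. Cluster 7, led by cycling genes, had 65 control and 536 Maf LSEC-KO cells, and there *Rarb* was at 54.1 and 2.75 CPM and *Dhrs3* at 243 and 72.3 CPM. *Cyp26b1* in cluster 7 was at 439.6 CPM in control and 88.9 CPM in the knockout (log2 ratio -2.31, -2.48 to -2.13). The 56 knockout cells of cluster 1 had *Maf* at 2676 CPM, and their *Rarb* (79.2 CPM, against 46.4 in control cells of the cluster) and *Dhrs3* (359 and 325 CPM) were not below the control level, nor was their *Cyp26b1* (128 and 107 CPM, log2 ratio 0.26, -0.08 to 0.58). For *Rara* the lowest and highest cluster of at least 50 cells were within 1.37-fold in control and 1.69-fold in Maf LSEC-KO.

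**Figure D3:**
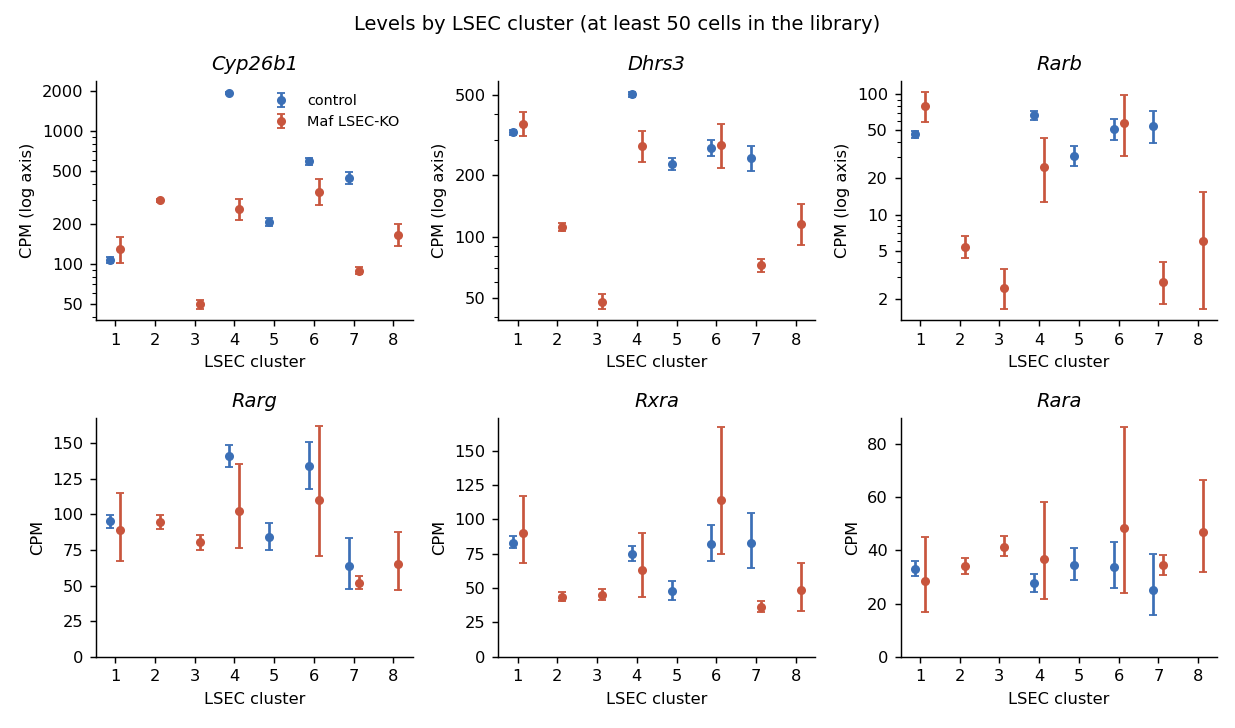
Levels in CPM by LSEC cluster, for clusters with at least 50 cells in the library, with exact 95% Poisson intervals for counting error. Axes are logarithmic for *Cyp26b1*, *Dhrs3* and *Rarb*, and start at 0 for *Rarg*, *Rxra* and *Rara*. *Cyp26b1* peaked at 1930.1 CPM in control cells of cluster 4, and *Rarb* was below 10 CPM in Maf LSEC-KO cells of clusters 2, 3, 7 and 8.

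LSECs near the central vein express *Wnt2* and *Rspo3*, ligand and enhancer of Wnt signaling, and these were used to place the members along the sinusoid. LSECs with at least 2 thinned UMIs of both genes together were compared with those with 0. There were 664 and 2124 such cells in control, and 49 and 2852 in Maf LSEC-KO, where the share of marked cells was 1.61% (1.19 to 2.12) against 18.0% (16.8 to 19.3) in control. *Rarb* was the member with the steepest difference in both libraries. It went from 35.2 CPM without a zonal UMI through 57.0 with 1 to 87.5 in marked LSECs of the control, a log2 ratio of 1.31 (1.14 to 1.48). In Maf LSEC-KO it went from 3.94 through 22.9 to 77.9 CPM, a log2 ratio of 4.31 (3.79 to 4.80) that rests on 44 UMIs in the marked cells. Between the libraries, the log2 ratio of *Rarb* was -0.17 (-0.64 to 0.28) in marked LSECs, of which the knockout had only 49 (23 of them with at least 2 *Maf* UMIs), and *Rarb* was 8.95-fold lower in the knockout among unmarked ones. The markers themselves differed between LSECs of control and knockout, with *Wnt2* at 284 and 35.4 CPM and *Rspo3* at 73.5 and 8.67 CPM. A class may therefore not hold the same zone in both libraries.

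*Dhrs3* had the same order, from 307 to 488 CPM in control (log2 ratio 0.67, 0.61 to 0.74) and from 83.2 to 359.5 CPM in Maf LSEC-KO (2.11, 1.90 to 2.32). *Cyp26b1* went from 534 to 887 CPM in control (0.73, 0.68 to 0.78) and from 158 to 636 CPM in Maf LSEC-KO (2.005, 1.85 to 2.16). *Rarg* was higher in marked cells of both (0.50 and 0.68), and *Rara* was lower in both (-0.35 and -0.92). The knockout intervals were 0.31 to 1.02 for *Rarg* and -1.92 to -0.07 for *Rara*. With *Rspo3* alone as the marker, the knockout ratio of *Rarg* was 0.01. Of the 6 members tested, 1 was at least 2-fold higher in marked LSECs of the control, against 0.767% of all genes, and 3 in Maf LSEC-KO, against 4.86%. At least 2-fold lower were 0 members in both, against 0.962% and 5.83% of all genes. *Maf* was at 3417 and 3497 CPM in unmarked and marked control LSECs, but at 99.2 and 910 CPM in those of Maf LSEC-KO, so that in the knockout zonal markers and *Maf* moved together. The ratios of the knockout were smaller, whatever their sign, when cells were classed by all of their UMIs in place of thinned ones. They were then 2.89 for *Rarb*, 1.24 for *Dhrs3*, 1.03 for *Cyp26b1*, 0.53 for *Rarg* and -0.01 for *Rara*.

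The members were also followed along the zonation coordinate of the study's methods, which ranks LSECs by central and portal landmark genes. It starts from *Wnt2*, *Cdh13* and, in control, *Rspo3* and *Wnt9b*, so that it shares markers with the split above and is no independent check of it. The members were left out of the landmarks, although *Dhrs3* met the limit for a central one in control. From the central to the portal quartile *Rarb* was at 89.2, 53.1, 36.3 and 21.0 CPM in control, and at 15.2, 3.38, 2.02 and 0.82 CPM in Maf LSEC-KO. *Dhrs3* was at 468, 387, 314 and 242 CPM in control and at 158, 90.3, 55.9 and 40.6 CPM in Maf LSEC-KO. *Cyp26b1* differed less between the ends in control (785, 759, 576 and 464 CPM), and in Maf LSEC-KO only the central quartile stood out (269, 138, 141 and 122 CPM). *Rxra* was nearly flat in both libraries.

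**Figure D4:**
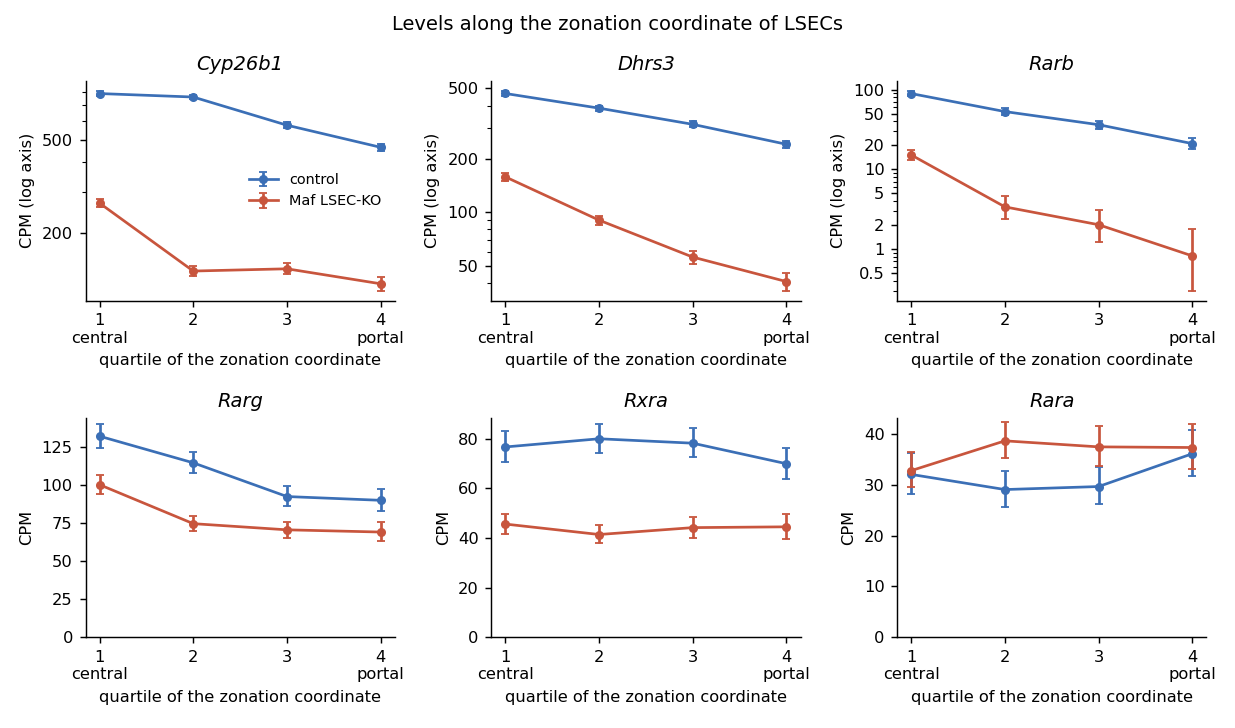
Levels in CPM in 4 equal groups of LSECs ranked from the central (1) to the portal (4) end of the zonation coordinate, in control (blue) and Maf LSEC-KO (red), with exact 95% Poisson intervals for counting error. Axes are logarithmic for *Cyp26b1*, *Dhrs3* and *Rarb* and start at 0 for the others. *Rarb* went from 89.2 to 21.0 CPM in control and from 15.2 to 0.82 CPM in Maf LSEC-KO.

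LSECs of the Maf LSEC-KO library were also compared by their *Maf* UMIs, where a single UMI can be background (5 UMIs of *Maf* were in the 86 neutrophil or monocyte-like cells). With 0, 1, 2 to 4 and at least 5 *Maf* UMIs there were 2554, 340, 129 and 210 LSECs. These classes used unthinned UMIs, and their median UMIs per cell were 13604, 18058, 16709 and 10042. The part of depth in the values of these classes was not tested. *Rarb* was at 3.92, 3.19 and 4.84 CPM in the lower classes and at 39.0 CPM (31.2 to 48.2) in LSECs with at least 5 *Maf* UMIs. *Dhrs3* was at 80.9, 83.6 and 84.7 CPM and then at 260 CPM (239 to 282). *Rxra* went from 41.3 to 71.6 CPM (60.8 to 83.7), where the control level of 76.5 CPM lay within the interval. *Cyp26b1* was at 168 CPM (163 to 173) without *Maf* UMIs and at 195 CPM (177 to 215) with at least 5, below the 653 CPM of control LSECs, of which cluster 4 held most UMIs. From 0 to at least 5 *Maf* UMIs, *Rarb* and *Dhrs3* thus differed by more than 2-fold and *Cyp26b1* by less. The *Maf* classes also differed in their clusters. A *Maf* UMI was in 100% of knockout cells of clusters 1 and 4, against 17.0% in cluster 2 and 13.8% in cluster 3. The part of the clusters in these values was not tested.

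Cells with at least 2 *Maf* UMIs had *Rarb* 5.7-fold and *Dhrs3* 2.16-fold higher than cells with 0. These were 2 of the 6 members tested, against 2.27% of all genes, and 0 members were at least 2-fold lower, against 0.776%. LSECs with at least 5 *Maf* UMIs also had more *Wnt2* (174 against 27.1 CPM) and more *Alb*, a hepatocyte gene (48.2 against 17.9 CPM), and a lower median of 10042 UMIs per cell against 13604. Zone and *Maf* were split where cell numbers allowed. Among LSECs without zonal UMIs, *Rarb* was at 3.28 CPM without *Maf* and at 11.0 CPM (7.80 to 14.99) with at least 2 *Maf* UMIs. Among 21 marked LSECs without a *Maf* UMI it was at 46.8 CPM (24.2 to 81.8, from 12 UMIs), and among 23 with at least 2 it was at 124 CPM (84.7 to 175). In the same classes *Cyp26b1* was at 158 and 156 CPM without zonal UMIs, and at 527 CPM (442 to 624) and 820.3 CPM (714 to 938) in marked LSECs. *Dhrs3* was at 77.4 and 137 CPM, and at 222 and 538 CPM.

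**Figure D5:**
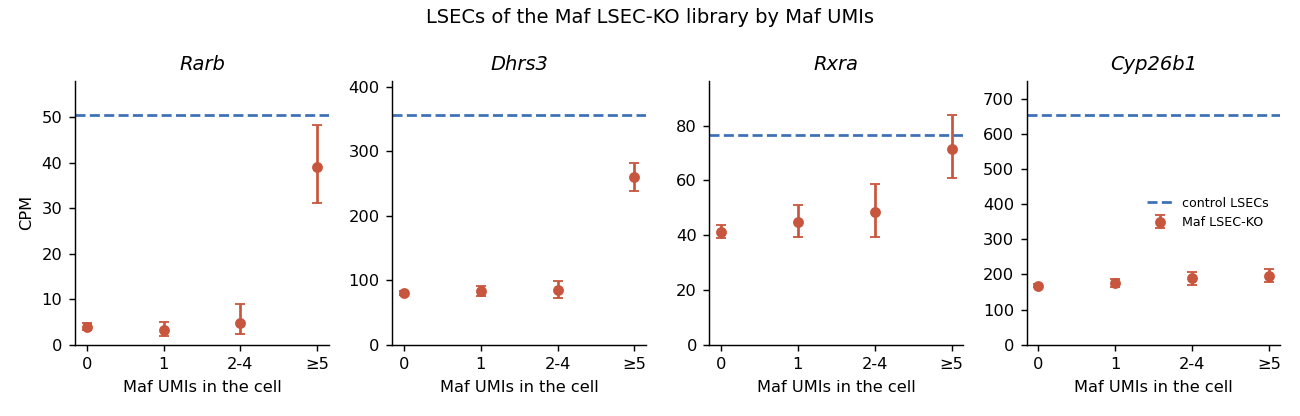
Levels of 4 members in LSECs of the Maf LSEC-KO library (red) by the number of *Maf* UMIs in the cell, in CPM on axes that start at 0, with exact 95% Poisson intervals for counting error. The dashed line is the level in control LSECs. *Rarb* reached 39.0 and *Dhrs3* 260 CPM in cells with at least 5 *Maf* UMIs, while *Cyp26b1* stayed at 195 CPM.

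Endothelial cells with a *Vwf* UMI were not counted as LSECs, since *Vwf* marks larger vessels. There were 161 of them in control and 1177 in Maf LSEC-KO, so that this rule left out more cells of the knockout. *Clec4g*, a sinusoidal gene, was at 1704.7 and 1158 CPM in them, between the 3019.7 and 1517 CPM of LSECs and the 426 and 262 CPM of immune cells. With these cells kept among the LSECs the log2 ratio was -1.62 for *Cyp26b1*, -2.62 for *Rarb* and -1.98 for *Dhrs3*. In them *Rarb* was at 64.9 and 14.2 CPM, *Dhrs3* at 295 and 85.1 CPM and *Cyp26b1* at 415 and 291 CPM. The Maf LSEC-KO library held a sub-cluster of 77 endothelial cells led by *Rspo3*, with *Vwf* at 3332 CPM and *Maf* at 3.52 CPM. In it *Rarb* was at 122 CPM (99.7 to 148) and had UMIs in 59.7% of cells, *Dhrs3* was at 265 CPM and *Cyp26b1* at 615 CPM (563 to 669). A second sub-cluster of 66 cells, led by *Wnt9b* and *Rspo3*, had *Rarb* at 74.5 CPM (56.9 to 95.9), *Cyp26b1* at 863 CPM and *Maf* at 29.8 CPM. Of the control clusters, that led by *Rspo3* (470 cells) had the highest *Rarb*, 108 CPM (98.8 to 118), with *Maf* at 2930.1 CPM. The control cluster differed from these sub-clusters in other genes, with *Vwf* at 136 CPM and *Clec4g* at 2348 CPM, against *Clec4g* at 233 CPM in the 77 cells and at 921 CPM, with *Vwf* at 622 CPM, in the 66. In contrast, 435 endothelial cells of the knockout led by *Gja5* and *Npr3* among others had *Rarb* at 2.33 CPM with *Cyp26b1* at 387 CPM.

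Stellate cells were few. In control 9 cells formed a stellate-like group in which all 12 stellate genes were above 10 CPM and all 9 cells had *Lrat* UMIs, between 2 and 39. In Maf LSEC-KO a group of 23 mesenchymal cells was mixed, with 8 cells that had *Lrat* UMIs and 9 with UMIs of *Msln* or *Upk3b*, genes of mesothelium. Control stellate-like cells also carried endothelial RNA, with *Clec4g* at 1021 CPM against 3019.7 CPM in LSECs. *Cyp26b1* had 1 UMI in the 9 control cells (7.51 CPM) and 0 UMIs in the 23 knockout cells, which allows up to 7.81 CPM. *Aldh1a1* had 0, 0, 3, 2, 6, 0, 1, 1 and 1 UMIs in the 9 control cells (105 CPM, 57.5 to 176), above the 1.59 CPM of LSECs. In the knockout group it had UMIs in 15 of 23 cells (156 CPM, 119 to 201), 10 UMIs in the *Lrat* cells and 40 in the mesothelial-gene cells.

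*Aldh1a2* had 13 UMIs in the mesenchymal group of the knockout, all of them in 6 of the 9 cells with *Msln* or *Upk3b* UMIs, and 0 UMIs in the 8 *Lrat* cells and in the 9 control cells. *Rarb* had 7 UMIs in 5 of 9 control stellate-like cells and 4 UMIs in 3 of the 8 *Lrat* cells of the knockout. *Rxra* had 22 UMIs in the control cells, up to 9 in a cell (165 CPM, 104 to 250.1), and 11 UMIs in the *Lrat* cells. *Dhrs3* had 20 and 11 UMIs, *Rarg* 7 and 5 and *Rara* 4 and 4. The groups differ in makeup and are small, and they were not compared between the conditions.

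*Cyp26b1* was at 166 and 17.0 CPM in macrophage-like cells of control and Maf LSEC-KO. In control, 11 of the 14 endothelial markers had UMIs in at least 50% of these cells, against 2 in Maf LSEC-KO, and the part of endothelial RNA in this value was not tested. *Rara* was highest in neutrophil or monocyte-like cells, with 224 CPM (157 to 311) in the control library and 231 CPM (185 to 285) in the knockout. *Rxra* in macrophage-like cells was at 130.1 CPM (112 to 150) and 206 CPM (188 to 226). *Aldh1a1* was at 139 CPM (93.7 to 198) and 202 CPM (166 to 245) in cholangiocyte-like cells, which also had *Alb* at 4809.6 and 3949.5 CPM. The knockout cells of this group had *Aldh1a2* at 22.9 CPM, from 12 UMIs in 7 of 37 cells. A group of 100 control endothelial cells with hepatocyte RNA held 45 of the *Aldh1a1* UMIs of that library (40.3 CPM).

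Over 20 groups of at least 50 cells, of either library, the genes most like each member were found by Pearson's r of log2(CPM + 5) among 12205 genes. The groups share 2 libraries and differ in depth, so r is a description. For *Rarb* the closest were *Wnt2* (r = 0.96), *Nkd1*, a Wnt target, (0.94) and *Tex2* (0.93). For *Dhrs3* they were *Dab2* (0.96), *Man2a1* (0.95) and *Gas6* (0.95), for *Cyp26b1* *Fam174b* (0.87), *Usp54* (0.87) and *Capn2* (0.86). *Rarg* was closest to *Card10* (0.93), *Rxra* to *Wwp1* (0.96), *Rara* to *Il1r2* (0.95) and *Aldh1a1* to *Rgn* (0.96). Among the members, *Dhrs3* went with *Rarb* (0.87) and *Cyp26b1* (0.81), and *Rara* ran against *Rxra* (-0.74).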

How the data were processed

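The deposited values are raw counts of UMIs for each gene in each barcode, which the authors made by alignment to mm10 with Cell Ranger 6.0.2 (per the submitters' processing notes, which also name Seurat 5.0.1). Cells needed 1500 UMIs and 750 genes. Scrublet, as held in scanpy 1.11.5, gave each cell a doublet score. Its automatic limit marked only 1 and 2 cells, and the top-scoring 225 (control) and 308 (Maf LSEC-KO) cells, the number expected at this loading, were therefore left out. Each library was clustered in Seurat 5.3.0 with 16 and 20 principal components and a resolution of 0.3, and clusters that held both endothelial and stellate genes were clustered again. Endothelial clusters had UMIs of *Pecam1* and of at least 7 of 14 marker genes in at least 50% of cells. LSECs were their cells without a *Vwf* UMI. Lymphatic or large-vessel endothelial cells in which no *Vwf* UMI was seen can therefore be among them. The endothelial clusters included a knockout sub-cluster with *Mmrn1* and *Prox1* among its leading genes and a control cluster with *Ednrb* and *Vegfc*. LSECs of both libraries were merged with SCTransform (sctransform 0.4.2), 3000 variable genes and 22 principal components. Names ending in -like rest on at least 3 markers among the 50 leading genes, and they may differ from those of the study.

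Levels are summed UMIs per 1000000 (CPM) outside mitochondrial and ribosomal protein genes. Intervals are exact (Poisson for levels, Clopper-Pearson for shares and, given the summed count, for ratios), at the 95% level, from scipy 1.17.1. For a count of 0 the limit was set at 3 counts. No test and no p-value was computed, as each condition is 1 library of 3 pooled mice. Genes with at least 10 CPM in either group were counted as different past 2-fold. The named genes were the members, the genes of the retinoid lists past 2-fold and the 3 genes most like each member with at least 50 UMIs in the groups compared. The values of 1 gene of the lists are not reported here. The members and lists were chosen with earlier results of these data known. Alternatives for doublets, cell filters, scaling, thinning, the gene minimum and the zonal and *Maf* limits are given in the closing section, and those that leave out LSEC clusters, cells with *Maf* UMIs or shared barcodes were chosen after seeing the data. The members were among the genes used for clustering. The computations were tested on simulated data. Other assays of the study were not analysed here.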

Additional observations from a re-analysis of the deposited data

Results flagged for a closer look

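The log2 ratio of *Rxra* along the zonal markers had opposite signs in the libraries. In control its level was lower in LSECs with at least 2 thinned UMIs of *Wnt2* and *Rspo3* than in those with 0, with a log2 ratio of -0.0921 (-0.25 to 0.06) whose interval holds 0. In Maf LSEC-KO it was higher, with a log2 ratio of 0.6406 (0.14 to 1.10) from 38 UMIs in 49 cells. Under 4 alternatives the control ratio was above 0, namely *Rspo3* alone (0.17), at least 1 zonal UMI (0.01), all UMIs (0.12) and the end quartiles of the zonation coordinate (0.13), and the knockout ratio was 0.10 with *Vwf* cells kept and 0.04 between the quartiles. The direction in control is therefore not settled. Each library is 1 sample, and the difference between them was not tested.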

How the results depend on the processing

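No paired analysis was possible because each condition is 1 library. Between conditions, 3 members were at least 2-fold lower and 0 higher under each alternative that kept cluster 4, and the log2 ratios ranged from -3.68 to -2.62 for *Rarb* and from -2.15 to -1.88 for *Dhrs3*. That of *Cyp26b1* ranged from -2.12 to -1.62 where cluster 4 was kept. Without cluster 4, an alternative chosen after seeing the data, it was -0.01, which left 2 members at least 2-fold lower. Scaling by all genes, by the median of ratios or by TMM moved every log2 ratio by -0.19, -0.15 and -0.14, and that of *Rara* was then as low as 0.02. No ratio between groups of LSECs whose interval left out 0 changed direction. Along zonal markers of the control, 2 members were at least 2-fold higher with *Rspo3* alone and 0 with at least 1 zonal UMI, against 1. In Maf LSEC-KO, 4 were with *Rspo3* alone, against 3, since *Rxra* reached 1.04, and thinned UMIs made 1 member, *Rara*, at least 2-fold lower. With at least 1 *Maf* UMI in place of 2, 1 member was at least 2-fold higher, against 2. The log2 ratio of *Rarb* between *Maf* classes ranged from 1.58 to 3.31 and that of *Dhrs3* from 0.62 to 1.68 with the *Maf* limit. The cause of these changes was not tested. Picking cells by at least 3 detected stellate genes in place of the stellate-like cluster moved 5 of the 8 members in control (40 cells in place of 9): *Cyp26b1* from 7.51 to 498 CPM, *Dhrs3* from 150.1 to 302 CPM, *Rxra* from 165 to 83.9 CPM, *Aldh1a1* from 105 to 33.2 CPM and *Aldh1a2* from 0 to 35.0 CPM. In the knockout it moved *Cyp26b1* from 0 to 158 CPM, *Aldh1a1* from 156 to 51.9 CPM, *Aldh1a2* from 33.9 to 10.2 CPM and *Rarg* from 28.6 to 68.9 CPM. Of the 40 control cells, 35% had a *Lrat* UMI, against 100% of the 9. Their *Clec4g* was at 2033 CPM and their *Dcn* at 4177 CPM, against 1021 and 14955 CPM in the 9. The 40 cells were thus a mix with endothelial cells, and their levels are not those of stellate cells alone. In LSECs *Aldh1a1* rests on 52 and 40 UMIs and *Aldh1a2* on 20 and 2, in control and Maf LSEC-KO. *Rarb* in Maf LSEC-KO LSECs rests on 231 UMIs.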
